A study of Homo sapiens with 12 samples.

Results

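The 35 genes described here belong to the program of the transcription factor ATF4. They comprise 13 stress regulators and effectors, 14 enzymes and 8 amino acid transporters. The enzymes, apart from PCK2, serve serine, folate, proline, asparagine and cysteine metabolism. The 35 genes were selected by gene symbol, with no threshold on a measured value. All 35 were found among the 57500 genes of the count table by their gene symbol. RNA was sequenced from MRC5 cells, a single line of human embryonic lung fibroblasts, in 12 libraries that form 4 groups of 3. Proliferating cells that were not irradiated form the group Prol. A dose of 20 Gy of X-rays induced senescence in the group Sen(IR), and the other two groups are cells irradiated in the same way and kept in an inhibitor, UK5099 at 100 µM (Sen(IR)+UK5099) or CTPI2 at 15 or 30 µM (Sen(IR)+CTPI2). UK5099 blocks the mitochondrial pyruvate carrier and CTPI2 blocks the citrate carrier SLC25A1. The sources do not say which CTPI2 dose was sequenced, and cells were collected between day 10 and day 12 after the dose, with inhibitors present from day 1. The legends of the study call the 3 libraries of a group independent conditions or experiments, and the labels do not say whether each came from its own culture. The p-values measure the spread between these libraries.

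ATF4 is a leucine zipper factor that is translated preferentially when a kinase of the integrated stress response phosphorylates the initiation factor eIF2. The kinases sense amino acid shortage, endoplasmic reticulum stress, heme shortage or double-stranded RNA, and mitochondrial faults can feed into the same route. ATF4 binds DNA with C/EBP partners at composite elements and raises enzymes that make serine, glycine, asparagine and proline, carriers that import amino acids, and feedback genes such as TRIB3 and CHAC1. ATF4 itself is controlled largely at translation, so its mRNA level is not a measure of its protein.

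Total counts per library ran from 24289488 to 28245693 in Prol, from 20597736 to 22693608 in Sen(IR), from 22986814 to 25848472 with UK5099 and from 22625528 to 24246769 with CTPI2. Levels are given in CPM, that is, counts scaled to a common library size after TMM normalization, so that libraries of different depth can be compared. All 8 fibroblast markers exceeded 1 CPM in every library, and none of the 13 epithelial, endothelial or immune markers did so throughout, with list sums of at most 6.23 CPM. Markers moved with the groups. UK5099 lowered 4 of the 8 fibroblast markers relative to Sen(IR), COL1A2, THY1, COL1A1 (from 4714 ± 93.6 to 1601 ± 109 CPM, SD, n = 3) and COL3A1 (from 2752 ± 39.4 to 819 ± 26.96 CPM), whereas in senescence COL1A2 and THY1 rose and VIM fell. Of the 13 other markers, the endothelial KDR fell at both steps, from 4.21 ± 1.27 CPM in Prol through 0.949 ± 0.270 to 0.274 ± 0.0458 CPM, and the immune CD14 rose in senescence, from 0.192 ± 0.0564 to 3.32 ± 0.389 CPM (log2 fold change 4.09). With CTPI2 no marker was called. The part of these shifts in the results was not tested. Prol replicate 2 stood apart for these genes: it held the highest Prol value for 29 of the 35, whereas it was the highest Prol library for 33.2% of all genes tested. Without this library, 5 of the 35 were called higher and 18 lower in Sen(IR) against Prol, in place of 4 and 19 with all libraries, and the log2 fold changes of ALDH1L2 and CTH turned from negative to positive. In cultured cells measured in bulk, fewer cells that express a gene and less RNA per cell cannot be told apart.

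The composite element of ATF4 was searched as the letters TGATGNAA, on both strands, in the RefSeq promoter windows of GRCh38.p14, which run from 250 bases before to 50 bases after an annotated start. Of the 35 genes, 30 had at least 1 window, and 11 of these 30 (36.7%) held the motif, as did 4.46% of all genes with a window. Genes of the set had more windows each than genes in general, on average 1.73 against 1.29, and counted by window the motif was in 13 of 52 (25%) against 3.62% of all windows. The windows of MTHFD1L overlap and hold the same site, which the count by window includes more than once. NUPR1, PSPH, SHMT2, ALDH1L2 and PYCR1 were not matched. The 8 sequences shown are those of the 6 genes with the motif that UK5099 changed and, for contrast, of SLC1A4 and SLC1A5, which it did not change beyond the limits. Each runs 5′ to 3′ on the strand of the gene, with the match in capitals.
ATF3: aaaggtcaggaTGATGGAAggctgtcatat
CEBPG: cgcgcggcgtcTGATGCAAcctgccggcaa
CHAC1: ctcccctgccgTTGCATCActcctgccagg
ASNS: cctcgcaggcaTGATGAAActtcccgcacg
SLC7A1: gggcgcactgcTGATGAAAcctggcgccgg
SLC3A2: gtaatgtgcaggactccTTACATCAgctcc
SLC1A4: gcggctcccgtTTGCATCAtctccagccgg
SLC1A5: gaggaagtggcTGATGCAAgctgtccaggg
They lie at chr1:212565205-212565234 (+ strand), chr19:33374060-33374089 (+ strand), chr15:40953251-40953280 (+ strand), chr7:97872458-97872487 (- strand), chr13:29595663-29595692 (- strand), chr11:62881719-62881748 (+ strand), chr2:64989381-64989410 (+ strand) and chr19:46784893-46784922 (- strand), in the same order. In CHAC1, SLC3A2 and SLC1A4 the match reads in the opposite orientation to the gene. The other 3 genes with a match were JDP2, MTHFD1L and SLC38A1. A match describes the letters of the window and is neither a binding site nor a cause. The genes were listed as members of the ATF4 program, so their share with the motif describes that list and not the measured counts.

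Across the set, senescence and UK5099 both went with lower levels of most genes, and no gene was called with CTPI2. Calls were made with edgeR's quasi-likelihood test, with limits of 0.05 on the p-value, adjusted by Benjamini-Hochberg over all 16251 genes tested, and of 0.5 on the log2 fold change in either direction. All 35 genes were among those tested. In Sen(IR) against Prol, 19 of the 35 fell, beside 22.4% of all genes tested, and 4 rose, beside 24.8%. The median log2 fold change of the 35 was -0.72, against 0.01 over all genes. With UK5099, 19 of the 35 fell relative to Sen(IR), beside 12.1% of all genes, and 1 rose, beside 8.76%, with a median of -0.57 against 0.01. With CTPI2, 0 were called in either direction, beside 0.148% lower and 0.0185% higher of all genes tested. Libraries of the compared groups did not overlap for 29 of the 35 genes in senescence, beside 70.9% of all genes, for 28 with UK5099, beside 56.6%, and for 9 with CTPI2, beside 15.1%. All 3 comparisons use the same Sen(IR) libraries.

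**Figure D1:**
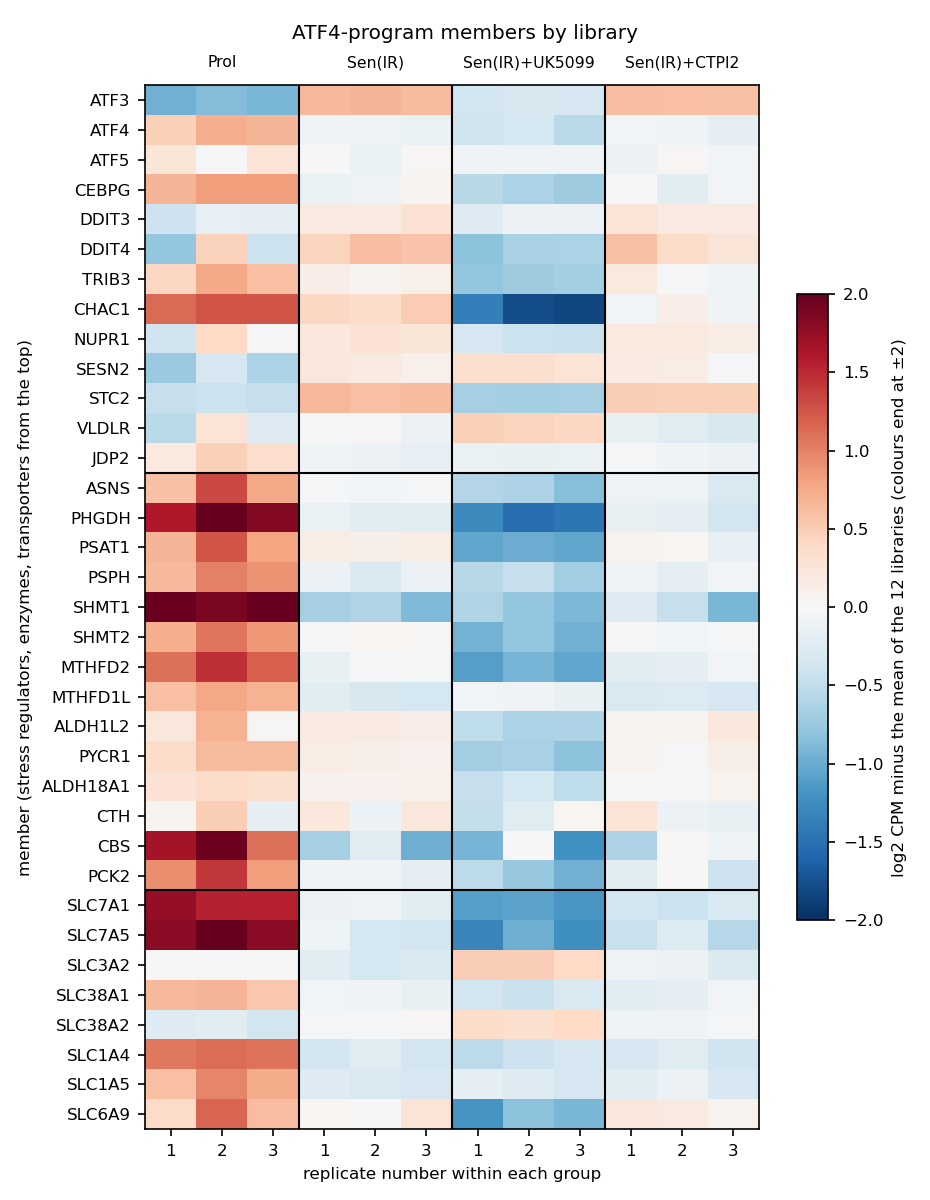
Level of each of the 35 genes (rows, grouped by role) in each of the 12 libraries (columns, 3 per group), as log2 CPM minus the gene's mean over the 12 libraries, with colours ending at 2 log2 units. Most enzymes and transporters are highest in Prol and lowest with UK5099, SLC3A2, SLC38A2 and VLDLR run the other way with UK5099, and Prol replicate 2 is the darkest Prol column for many genes.

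By role, 10 of the 14 enzymes fell in senescence (median log2 fold change -0.97), beside 22.4% of all genes tested. The means of all 14 were lower in Sen(IR) than in Prol, but for ALDH1L2 and CTH this rested on Prol replicate 2. Of the 8 transporters 6 fell (median -0.90), and none of these 22 genes rose, beside 24.8% of all genes tested. The 13 stress regulators were divided, with 4 higher and 3 lower, near the shares of 24.8% and 22.4% over all genes. Their median was 0.10, against 0.01 over all genes. Against Sen(IR), UK5099 lowered 7 of the 13 regulators (median -0.57), 9 of the 14 enzymes (median -0.64) and 3 of the 8 transporters (median -0.18), and the 1 gene that rose was a transporter chain, SLC3A2. Over all genes tested, 12.1% fell and 8.76% rose with UK5099. Taking the group means, 27 of the 35 genes had their lowest level with UK5099, and the share over all genes was not computed. Some of these differences were small. For JDP2, SHMT1 and CBS the log2 fold change against Sen(IR) turned from negative to positive in at least 1 fit that left out 1 library.

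**Figure D2:**
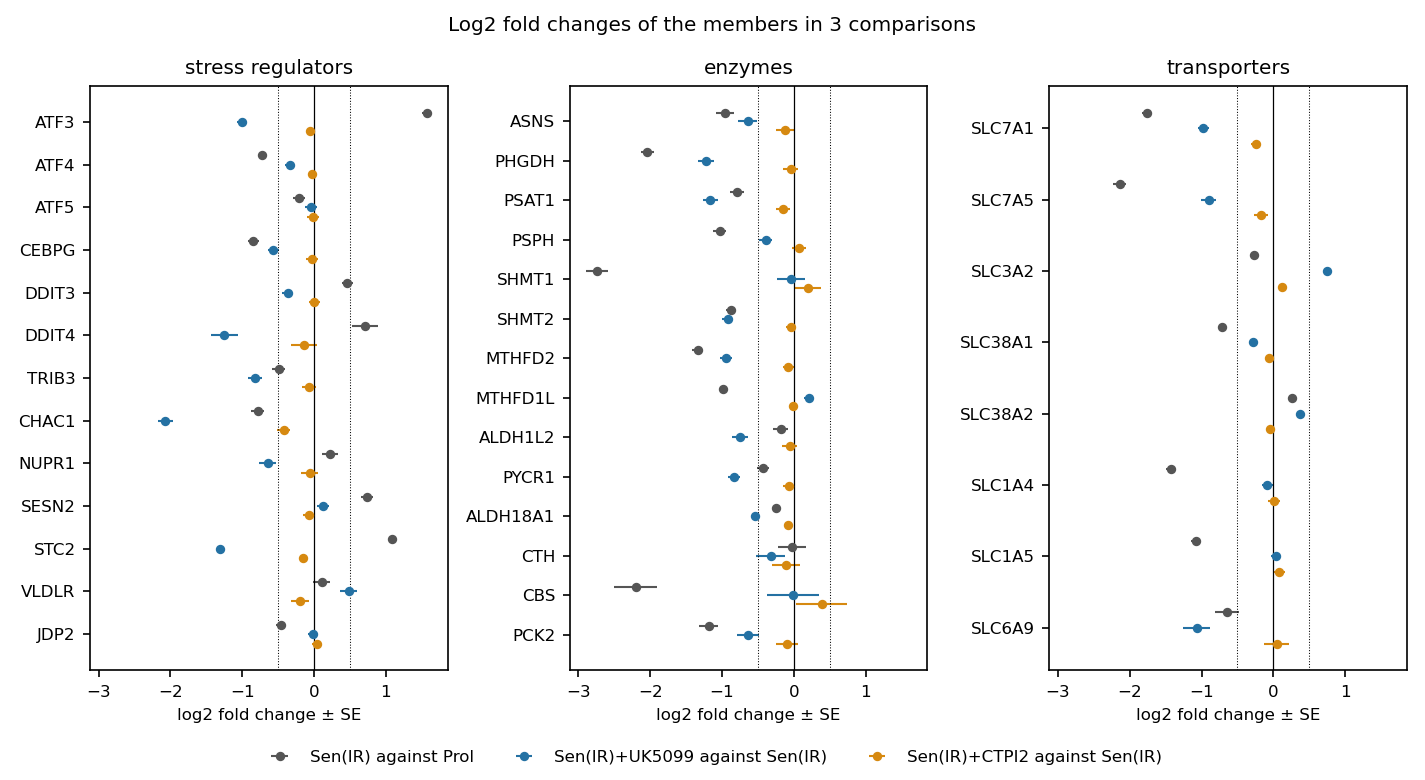
Log2 fold change with its SE (x axis) of each gene (y axis) in Sen(IR) against Prol, Sen(IR)+UK5099 against Sen(IR) and Sen(IR)+CTPI2 against Sen(IR), with dotted lines at the limit of 0.5 in either direction. Enzymes lie at or left of 0 in senescence, ATF3, STC2, DDIT4 and SESN2 lie to the right, and the CTPI2 points cluster near 0.

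ATF4 mRNA (ENSG00000128272, chromosome 22, 39519695 to 39522683) was measured at 267, 317 and 306 CPM in the Prol libraries, 183, 183 and 175 in those of Sen(IR), 145, 149 and 132 in those with UK5099 and 183, 181 and 166 in those with CTPI2. Every Prol library lay above every other library, and every UK5099 library lay below every Sen(IR) library. Levels fell in senescence by 0.72 on the log2 scale (SE 0.0626, edgeR adjusted p 7.92e-10). The further difference with UK5099 was -0.34 (SE 0.0632, edgeR adjusted p 0.000126), past the p limit but not the fold limit, and CTPI2 libraries overlapped those of Sen(IR) (-0.03, SE 0.0629, edgeR adjusted p 0.97). The genome holds 4 pseudogenes named after ATF4 that could share its reads. DDIT3 (ENSG00000175197, chromosome 12, 57516588 to 57521737), which encodes the stress factor CHOP, was at 19.6, 23.3 and 23.2 CPM in the Prol libraries, 29.6, 29.3 and 31.97 in those of Sen(IR), 21.98, 24.2 and 24.2 in those with UK5099 and 31.4, 29.8 and 29.6 in those with CTPI2. Its Sen(IR) libraries were above both the Prol and the UK5099 libraries without overlap, yet neither difference reached the fold limit, at 0.46 (SE 0.0778, edgeR adjusted p 1.81e-05) and -0.37 (SE 0.0772, edgeR adjusted p 0.000473). Without Prol replicate 2 the first of these passed it (0.50, edgeR adjusted p 1.22e-05). Exons of MARS1, MBD6 and a further gene cover 39.63% of the DDIT3 exon bases, and no source states whether reads were counted by strand.

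ATF3, DDIT4 and STC2 rose in senescence and fell with UK5099, the only 3 of the 35 with that pattern. ATF3 (ENSG00000162772, chromosome 1, 212565334 to 212620777), a leucine zipper factor induced by many stresses, was at 13.5, 14.5 and 14.1 CPM in the Prol libraries, 41.5, 42.4 and 41.1 in those of Sen(IR), 20.2, 21.1 and 20.97 in those with UK5099 and 40.6, 40.3 and 39.7 in those with CTPI2. The UK5099 libraries stood between Prol and Sen(IR) without overlap. The log2 fold change was 1.57 (SE 0.0663, edgeR adjusted p 2.48e-15) in senescence and -1.004 (SE 0.0634, edgeR adjusted p 1.44e-11) with UK5099. STC2 (ENSG00000113739, chromosome 5, 173314723 to 173328447), which encodes the secreted glycoprotein stanniocalcin 2, was at 613, 624 and 608 CPM in the Prol libraries, 1335, 1280.0 and 1309.8 in those of Sen(IR), 530.1, 525 and 532 in those with UK5099 and 1185, 1167 and 1174 in those with CTPI2. Here all 3 UK5099 libraries lay below the Prol range, with log2 fold changes of 1.09 (SE 0.0427, edgeR adjusted p 6.58e-16) in senescence and -1.31 (SE 0.0430, edgeR adjusted p 1.31e-16) with the inhibitor. DDIT4 (ENSG00000168209, chromosome 10, 72273919 to 72276036), which encodes the mTORC1 inhibitor REDD1, was at 9.81, 23.1 and 12.5 CPM in the Prol libraries, 23.00, 25.9 and 24.96 in those of Sen(IR), 9.48, 10.8 and 10.8 in those with UK5099 and 25.2, 21.7 and 20.1 in those with CTPI2. Prol replicate 2 was within the Sen(IR) range, whereas no UK5099 library was. DDIT4 changed by 0.71 (SE 0.180, edgeR adjusted p 0.00148) in senescence, by 1.14 without Prol replicate 2 and by 0.48 without Prol replicate 1 (adjusted p 0.0112), which is under the fold limit. The change with UK5099 was -1.25 (SE 0.187, edgeR adjusted p 9.54e-06).

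CHAC1, which encodes an enzyme that degrades glutathione, had the lowest log2 fold change of the 35 with UK5099. It (ENSG00000128965, chromosome 15, 40952962 to 40956512) was at 40.4, 44.3 and 43.9 CPM in the Prol libraries, 24.5, 23.9 and 26.2 in those of Sen(IR), 7.16, 5.41 and 5.23 in those with UK5099 and 17.7, 20.3 and 17.5 in those with CTPI2. The 4 groups followed each other without overlap, from Prol through Sen(IR) and CTPI2 down to UK5099. CHAC1 fell by 0.79 on the log2 scale in senescence (SE 0.0864, edgeR adjusted p 3.68e-08) and by another 2.07 with UK5099 (SE 0.104, edgeR adjusted p 2.72e-13). Its promoter match is the reverse complement of the letters TGATGCAA that stand in the CEBPG and SLC1A5 sequences. CEBPG, a dimer partner of ATF4, also fell in both steps, from 52.1 ± 3.10 in Prol to 28.96 ± 2.03 in Sen(IR) and 19.5 ± 1.10 CPM with UK5099 (SD, n = 3), with log2 fold changes of -0.85 and -0.57.

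**Figure D3:**
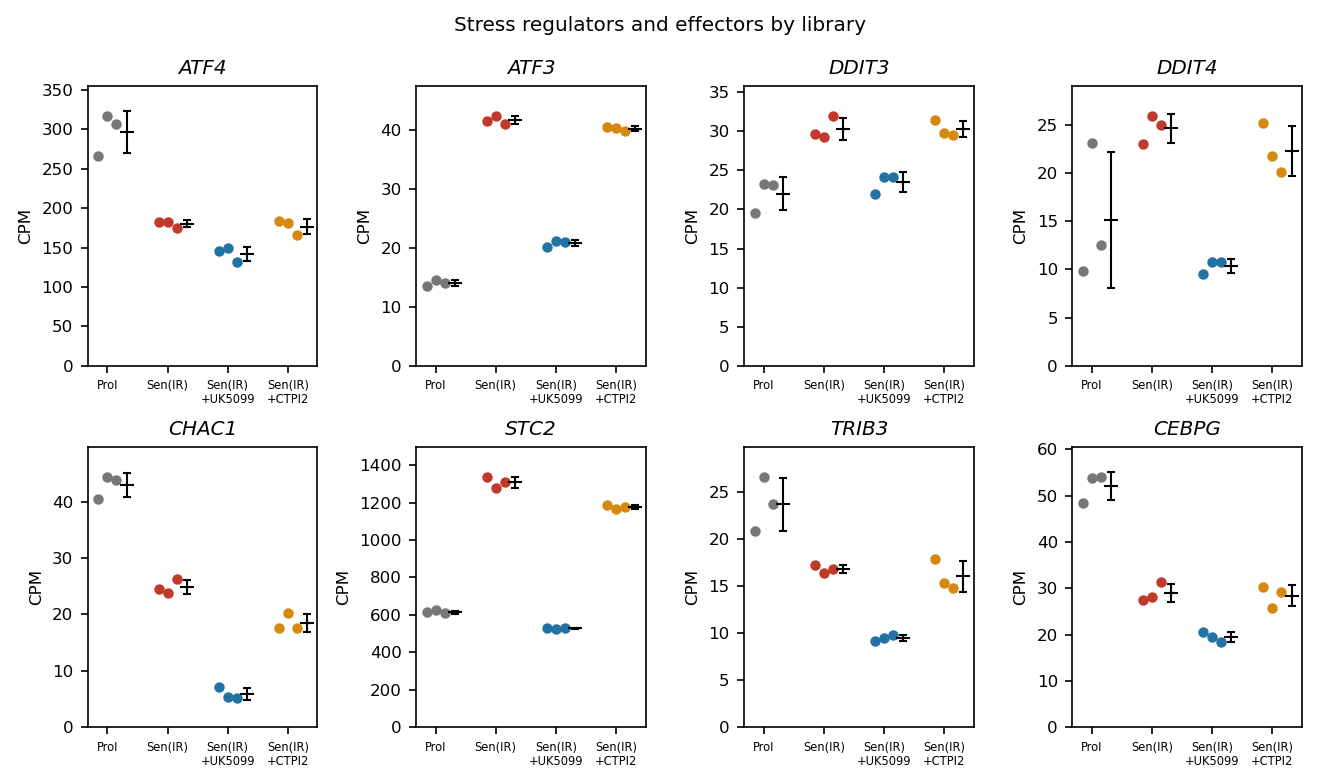
CPM (y axis, from 0) of 8 stress regulators in the 3 libraries of each group (points), with the mean and SD beside them. ATF3, STC2 and DDIT4 are high in Sen(IR) and low with UK5099, and CHAC1 steps down from Prol to UK5099. The CTPI2 points lie close to those of Sen(IR) for most genes, but below them without overlap for CHAC1, STC2 and ATF3.

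TRIB3 and NUPR1 fell with UK5099 and had not been called in senescence. TRIB3 missed the fold limit there narrowly, at -0.495 (edgeR adjusted p 7.03e-05), with libraries that did not overlap, and NUPR1 was at 0.22 (edgeR adjusted p 0.0959). TRIB3, a pseudokinase that feeds back on the pathway, was at 23.7 ± 2.82 in Prol, 16.8 ± 0.457 in Sen(IR) and 9.47 ± 0.349 CPM with UK5099 (SD, n = 3), with a log2 fold change of -0.82 (SE 0.101, edgeR adjusted p 6.51e-07) in the last step. NUPR1, a small stress-induced chromatin protein, changed by -0.65 (SE 0.116, edgeR adjusted p 9.14e-05) with UK5099, and its exons share 16.5% of their bases with another gene. SESN2, a sensor that restrains mTORC1 when leucine is short, rose in senescence (0.73, SE 0.0840, edgeR adjusted p 7.21e-08) and showed no further change past the test with UK5099 (0.13). VLDLR, a lipoprotein receptor, stayed under the fold limit with UK5099 at 0.48 (SE 0.121, edgeR adjusted p 0.00234). The factors ATF5 and JDP2 were called in neither comparison, at -0.20 and -0.46 in senescence and -0.04 and -0.01 with UK5099.

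Serine is made from the glycolytic intermediate 3-phosphoglycerate by PHGDH, PSAT1 and PSPH in turn. All 3 of these enzymes fell in senescence, and the first and the second fell further with UK5099. PHGDH (ENSG00000092621, chromosome 1, 119648411 to 119744218) was at 74.3, 102 and 87.4 CPM in the Prol libraries, 22.3, 20.9 and 21.04 in those of Sen(IR), 10.1, 8.53 and 8.99 in those with UK5099 and 21.97, 21.5 and 18.8 in those with CTPI2. Prol, Sen(IR) and UK5099 did not overlap, and CTPI2 overlapped Sen(IR). PHGDH changed by -2.04 (SE 0.0954, edgeR adjusted p 1.49e-14) in senescence and by -1.22 (SE 0.111, edgeR adjusted p 6.74e-09) with UK5099, on the log2 scale. PSAT1 (ENSG00000135069, chromosome 9, 78297125 to 78330093) was at 135, 200.5 and 144 CPM in the Prol libraries, 92.4, 90.6 and 92.8 in those of Sen(IR), 40.7, 41.9 and 40.8 in those with UK5099 and 87.7, 86.1 and 74.6 in those with CTPI2. Prol replicate 2 was the highest of all, and the 3 UK5099 libraries were the lowest. PSAT1 changed by -0.80 (SE 0.0977, edgeR adjusted p 2.06e-07) in senescence, by -0.60 without Prol replicate 2, and by -1.16 (SE 0.103, edgeR adjusted p 4.42e-09) with UK5099. PSPH (ENSG00000146733, chromosome 7, 56011051 to 56051604) was at 34.9, 44.5 and 41.2 CPM in the Prol libraries, 20.4, 18.1 and 20.5 in those of Sen(IR), 15.1, 16.2 and 13.7 in those with UK5099 and 21.2, 19.4 and 21.4 in those with CTPI2. It fell in senescence (-1.03, SE 0.0900, edgeR adjusted p 8.55e-10), and its UK5099 libraries, though all below Sen(IR), differed by less than the fold limit (-0.39, SE 0.0961, edgeR adjusted p 0.00197). Named pseudogenes number 4 for PSAT1 and 1 for PSPH.

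Serine passes its carbon to folate through SHMT1 in the cytosol or SHMT2 in mitochondria, and of these SHMT2 alone was called with UK5099. SHMT1 (ENSG00000176974, chromosome 17, 18327860 to 18363563) was at 15.1, 14.04 and 17.5 CPM in the Prol libraries, 2.402, 2.51 and 2.06 in those of Sen(IR), 2.53, 2.23 and 2.05 in those with UK5099 and 3.20, 2.77 and 2.03 in those with CTPI2. The irradiated groups all overlapped one another far below Prol. SHMT1 had the lowest log2 fold change of the 35 in senescence, -2.74 (SE 0.155, edgeR adjusted p 4.39e-13), and stood at -0.04 (SE 0.191, edgeR adjusted p 0.885) with UK5099. SHMT2 fell at both steps, from 135 ± 16.5 in Prol to 73.8 ± 0.647 in Sen(IR) and 38.9 ± 2.69 CPM with UK5099 (SD, n = 3), with log2 fold changes of -0.87 and -0.92. MTHFD2 (ENSG00000065911, chromosome 2, 74186172 to 74217565), the mitochondrial methylene-folate dehydrogenase, was at 187, 239 and 199 CPM in the Prol libraries, 78.3, 84.3 and 85.3 in those of Sen(IR), 40.4, 45.8 and 42.5 in those with UK5099 and 75.5, 76.02 and 83.5 in those with CTPI2. Prol lay above Sen(IR) and UK5099 below it, each without overlap. MTHFD2 fell by 1.34 on the log2 scale in senescence (SE 0.0751, edgeR adjusted p 4.01e-13) and changed by -0.94 (SE 0.0786, edgeR adjusted p 1.53e-09) with UK5099. It has 7 named pseudogenes, and 14.15% of its exon bases are shared with other genes. The other mitochondrial folate enzymes split: MTHFD1L, which releases formate, fell in senescence (-0.99) and was at 0.21 with UK5099, whereas ALDH1L2, which oxidises formyl-folate, was called only with UK5099 (-0.75, against -0.18 in senescence, or 0.03 without Prol replicate 2).

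**Figure D4:**
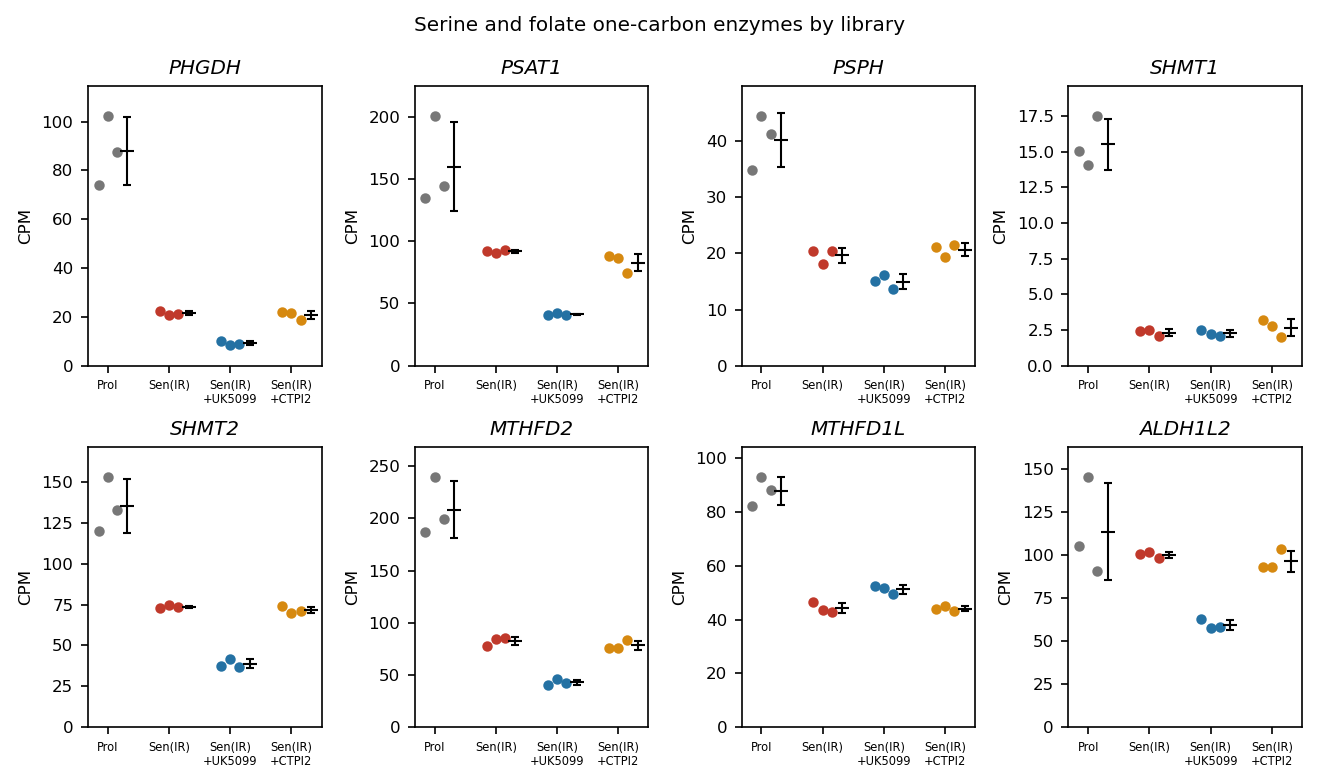
CPM (y axis, from 0) of 8 enzymes of serine synthesis and folate one-carbon metabolism in the 3 libraries of each group (points), with the mean and SD beside them. Prol is highest for 8 of 8 enzymes by its mean, for ALDH1L2 through replicate 2 alone. PHGDH, PSAT1, PSPH, SHMT2, MTHFD2 and ALDH1L2 reach their lowest levels with UK5099, apart from the Sen(IR) points (PSPH by less than the fold limit). SHMT1 does not separate the irradiated groups.

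ALDH18A1 and PYCR1, which make proline from glutamate, were not called in senescence and fell with UK5099, by 0.53 and 0.84 on the log2 scale (edgeR adjusted p 2.54e-08 and 2.73e-08). In senescence both were lower without overlap but under the fold limit, at -0.24 and -0.43 (edgeR adjusted p 0.000301 and 4.58e-05). Exons of other genes cover 29.73% of the PYCR1 exon bases. ASNS, asparagine synthetase, fell at both steps, from 90.5 ± 25.6 in Prol to 46.5 ± 0.649 in Sen(IR) and 29.9 ± 2.96 CPM with UK5099 (SD, n = 3). Its log2 fold change in senescence was -0.96, or -0.71 without Prol replicate 2, and with UK5099 it was -0.64 (SE 0.129, edgeR adjusted p 0.00032). A second annotated gene covers 49.33% of the ASNS exon bases and 4 pseudogenes carry its name, so its counts are uncertain. PCK2 (ENSG00000100889, chromosome 14, 24094053 to 24110598), mitochondrial phosphoenolpyruvate carboxykinase, was at 19.6, 27.2 and 18.4 CPM in the Prol libraries, 9.74, 9.77 and 9.07 in those of Sen(IR), 7.12, 6.08 and 5.27 in those with UK5099 and 8.86, 10.2 and 7.71 in those with CTPI2. All Prol libraries were above Sen(IR) and all UK5099 libraries below it. PCK2 fell in senescence by 1.19 on the log2 scale (SE 0.136, edgeR adjusted p 7.45e-08), by 0.99 without Prol replicate 2, and with UK5099 it changed by -0.63 (SE 0.152, edgeR adjusted p 0.00172).

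CBS and CTH are the transsulfuration enzymes, which make cysteine from homocysteine, and CBS had the lowest level per kb of exon of the 35 in Sen(IR) (0.131 CPM per kb). CBS (ENSG00000160200, chromosome 21, 43053191 to 43076943) was at 4.26, 5.24 and 2.90 CPM in the Prol libraries, 0.845, 1.14 and 0.687 in those of Sen(IR), 0.704, 1.34 and 0.581 in those with UK5099 and 0.877, 1.36 and 1.26 in those with CTPI2. Prol was above Sen(IR) without overlap, and the 3 irradiated groups overlapped. CBS fell in senescence (-2.20, SE 0.300, edgeR adjusted p 9.63e-07) and was at -0.02 (SE 0.362, edgeR adjusted p 0.976) with UK5099. A near-identical copy, CBSL, is listed in the same table, so reads may have been lost or split between them. CTH, at 3.75 ± 0.498 CPM in Sen(IR), was called in no comparison, with log2 fold changes of -0.03 in senescence, 0.18 without Prol replicate 2, and -0.32 with UK5099.

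Among the transporters, the cationic amino acid carrier SLC7A1 and the leucine carrier SLC7A5 fell at both steps. SLC7A1 (ENSG00000139514, chromosome 13, 29509414 to 29595688) was at 106, 91.5 and 92.5 CPM in the Prol libraries, 28.9, 29.9 and 27.3 in those of Sen(IR), 14.7, 14.98 and 14.1 in those with UK5099 and 24.1, 23.5 and 25.4 in those with CTPI2. The 4 groups did not overlap, in the order Prol, Sen(IR), CTPI2 and UK5099 from high to low. Its log2 fold change was -1.75 (SE 0.0686, edgeR adjusted p 6.17e-16) in senescence and -0.98 (SE 0.0763, edgeR adjusted p 5.36e-10) with UK5099. SLC7A5 (ENSG00000103257, chromosome 16, 87830023 to 87869507), the light chain LAT1 of the large neutral amino acid exchanger, was at 119, 139 and 119 CPM in the Prol libraries, 32.2, 26.8 and 26.2 in those of Sen(IR), 13.6, 17.3 and 14.6 in those with UK5099 and 24.9, 28.1 and 22.8 in those with CTPI2. Only Sen(IR) and CTPI2 overlapped. SLC7A5 fell by 2.14 on the log2 scale in senescence (SE 0.0919, edgeR adjusted p 3.21e-15) and changed by -0.90 (SE 0.102, edgeR adjusted p 1.96e-07) with UK5099. SLC6A9 (ENSG00000196517, chromosome 1, 43991500 to 44031467), the glycine carrier GLYT1, was at 6.95, 11.9 and 8.18 CPM in the Prol libraries, 5.47, 5.36 and 6.47 in those of Sen(IR), 2.36, 3.04 and 2.83 in those with UK5099 and 6.23, 6.03 and 5.59 in those with CTPI2. Prol replicate 2 was again the highest library, and UK5099 was below Sen(IR) without overlap. The UK5099 change was -1.06 (SE 0.187, edgeR adjusted p 6.8e-05), while that in senescence (-0.64, SE 0.163, edgeR adjusted p 0.00139) was lost without Prol replicate 2, at -0.40 (adjusted p 0.0191).

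SLC1A4, SLC1A5 and SLC38A1, carriers of small neutral amino acids and glutamine, fell in senescence and were not called with UK5099. SLC1A4 (ENSG00000115902, chromosome 2, 64988477 to 65023865) was at 46.7, 49.1 and 48.1 CPM in the Prol libraries, 17.3, 19.1 and 17.3 in those of Sen(IR), 15.7, 16.99 and 17.8 in those with UK5099 and 17.8, 18.98 and 17.1 in those with CTPI2. SLC1A5 (ENSG00000105281, chromosome 19, 46774883 to 46788594), of which 23.83% of the exon bases are shared with other genes, was at 256, 329.7 and 282 CPM in the Prol libraries, 141, 137 and 132 in those of Sen(IR), 146, 141 and 133 in those with UK5099 and 145, 156 and 134 in those with CTPI2. For both carriers Prol lay apart and the UK5099 libraries overlapped Sen(IR). The log2 fold changes in senescence were -1.42 (SE 0.0732, edgeR adjusted p 8.11e-14) for SLC1A4 and -1.08 (SE 0.0733, edgeR adjusted p 1.12e-11) for SLC1A5. With UK5099 they were -0.09 (SE 0.0779) and 0.03 (SE 0.0735). Both genes hold the letters TGATGCAA or their reverse complement in the sequences printed above, as CEBPG and CHAC1 do. SLC38A1 changed by -0.72 (SE 0.0570, edgeR adjusted p 1.65e-10) in senescence and by -0.28 (SE 0.0573, edgeR adjusted p 0.000339) with UK5099. SLC38A2, the amino acid carrier with the highest level per kb of exon of the 35 in Sen(IR) (263 ± 5.68 CPM per kb, SD, n = 3), had positive log2 fold changes under the limit in both comparisons, 0.26 and 0.37.

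SLC3A2, the CD98 heavy chain that carries LAT1 and other light chains to the cell surface, was the only gene of the 35 that rose with UK5099, although 2 rose with upper-quartile scaling or without Sen(IR) replicate 2. It was chosen for values per library after they were seen. SLC3A2 (ENSG00000168003, chromosome 11, 62856004 to 62888880) was at 202, 199 and 203 CPM in the Prol libraries, 174, 159.8 and 167 in those of Sen(IR), 287, 286 and 268 in those with UK5099 and 190.1, 188 and 167 in those with CTPI2. The 3 UK5099 libraries were above all 9 others. The log2 fold change was 0.75 (SE 0.0545, edgeR adjusted p 1.54e-10), after -0.27 (SE 0.0546, edgeR adjusted p 0.00014) in senescence. SLC7A11, the cystine carrier chain xCT that pairs with SLC3A2 and is itself a known ATF4 target outside the 35, was at 550.3, 537 and 471 CPM in the Prol libraries, 548, 544 and 598 in those of Sen(IR), 1094, 1052 and 1214 in those with UK5099 and 579, 608 and 703 in those with CTPI2. It rose with UK5099 (0.99, SE 0.0715, edgeR adjusted p 1.33e-10) and overlapped between Prol and Sen(IR). Per kb of exon, the SLC7A5 level was 83.7% ± 8.47 of the SLC3A2 level in Prol, 22.8% ± 1.91 in Sen(IR), 7.26% ± 0.873 with UK5099 and 18.6% ± 1.24 with CTPI2 (SD, n = 3). On the same scale the SLC7A11 level was 171% ± 15.05, 224% ± 14.3, 265% ± 30.1 and 232% ± 41.4 of the SLC3A2 level. These percentages depend on the exon lengths of the annotation (GENCODE v44).

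**Figure D5:**
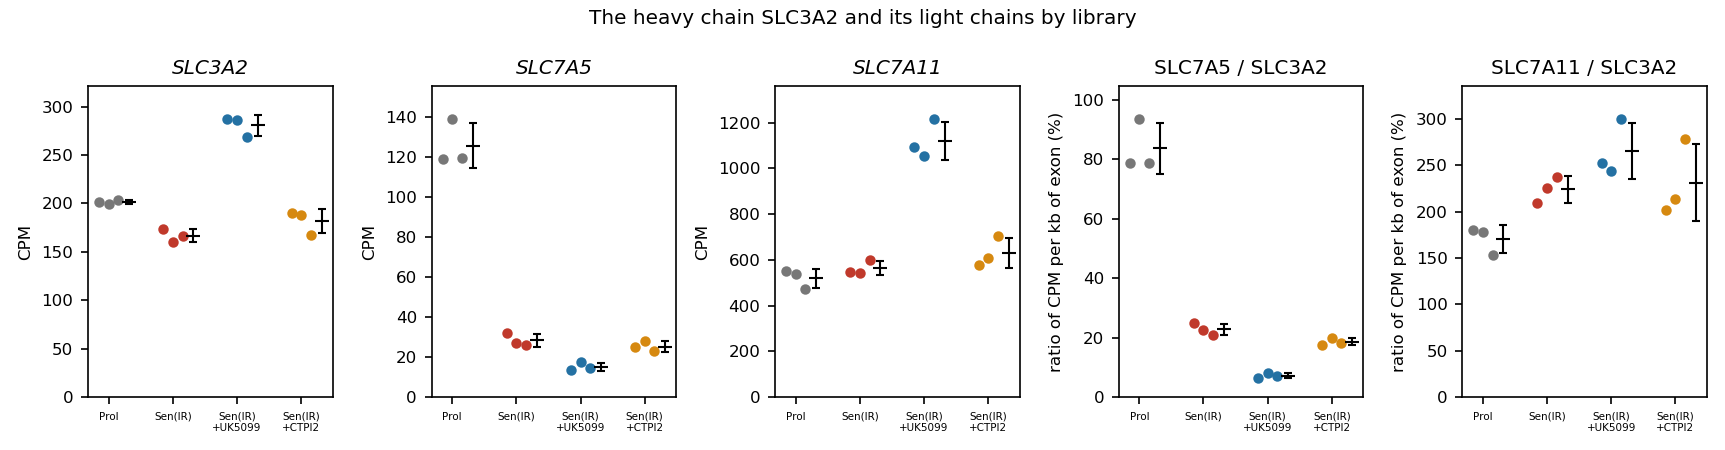
CPM (y axis, from 0) of SLC3A2, SLC7A5 and SLC7A11 in the 3 libraries of each group (points, with mean and SD beside them), and the level of each light chain as a percentage of the SLC3A2 level per kb of exon. SLC3A2 and SLC7A11 are highest with UK5099, where SLC7A5 is lowest and falls to 7.26% of SLC3A2.

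Of the 19 genes lowered by UK5099, 11 had already fallen in senescence, 3 had risen (ATF3, DDIT4 and STC2) and 5 had not been called (TRIB3, NUPR1, ALDH1L2, PYCR1 and ALDH18A1). Among these 5, TRIB3, PYCR1 and ALDH18A1 had been lower in senescence past the p limit but under the fold limit. The 11 were CEBPG, CHAC1, ASNS, PHGDH, PSAT1, SHMT2, MTHFD2, PCK2, SLC7A1, SLC7A5 and SLC6A9. A further 8 fell in senescence and were not called with UK5099, namely ATF4, PSPH, SHMT1, MTHFD1L, CBS, SLC38A1, SLC1A4 and SLC1A5. Both comparisons share the Sen(IR) libraries, with opposite sign, so these counts are a description. The shares of all genes with the same pairs of calls were not computed. Among the 11 genes with the promoter motif, 5 fell with UK5099, beside 54.3% of the 35 and 12.1% of all genes tested, 1 rose and 5 were not called. In senescence 8 of the 11 fell, beside 54.3% of the 35 and 22.4% of all genes, and 1, ATF3, rose.

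With CTPI2, edgeR and DESeq2 each called 0 of the 35 genes. The log2 fold changes of the 35 genes ran from -0.43 to 0.39 with a median of -0.06, and 27 of the 35 were negative, beside 49.0% of all genes tested and a median of 0.00 over all genes. Leaving out 1 library turned the sign of 9 of the 35 in at least 1 fit. At an unadjusted p under 0.05 there were 4 of 35, beside 7.27% of all genes, namely CHAC1, STC2, SLC7A1 and SLC3A2. CHAC1 alone had an adjusted p under 0.05, beside 0.486% of all genes, at -0.43 (SE 0.0916, edgeR adjusted p 0.0348), under the fold limit. Leaving out 1 of the Sen(IR) or CTPI2 libraries at a time moved that adjusted p above 0.05 in 5 of 6 fits, up to 0.252. STC2 was at -0.15 (SE 0.0422, edgeR adjusted p 0.164), SLC7A1 at -0.24 (SE 0.0731, edgeR adjusted p 0.273) and SLC3A2 at 0.13 (SE 0.0547, edgeR adjusted p 0.62), none past the adjusted limit.

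Compared directly, the UK5099 libraries had lower levels than the CTPI2 libraries for 18 of the 35 genes, beside 11.7% of all genes tested, and higher levels for 2, beside 8.20%, with a median log2 fold change of -0.52 against 0.01 over all genes. For 29 genes these libraries did not overlap, beside 53.6% of all genes. The 2 higher genes were SLC3A2 (0.63, SE 0.0542, edgeR adjusted p 3.44e-09) and VLDLR (0.68, SE 0.121, edgeR adjusted p 8.25e-05). CHAC1 differed most among the lower ones (-1.65, SE 0.106, edgeR adjusted p 2.4e-11), followed by PHGDH at -1.18, STC2 at -1.15, and DDIT4 and SLC6A9 at -1.11 each. ALDH18A1, which was lower with UK5099 than in Sen(IR), stayed under the fold limit here (-0.45). The inhibitors were used at different doses.

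Genes around the pathway were counted from further lists. Of all genes tested, 22.4% fell and 24.8% rose in senescence, and 12.1% fell and 8.76% rose with UK5099. The 7 genes of the eIF2 kinases, the eIF2 alpha subunit and its phosphatase subunits had 0 calls with UK5099 and a median log2 fold change of -0.09, with log2 fold changes from -0.40 to 0.49 and 4 of 7 at an unadjusted and an adjusted p under 0.05, the latter beside 45.4% of all genes. In senescence 3 of the 7 fell, EIF2S1 (-0.77) and the phosphatase subunits PPP1R15A (-0.75) and PPP1R15B (-0.83). Of 12 other ATF4-linked genes tested, 5 fell and 1 rose with UK5099 (median -0.41). The stress cytokine GDF15 went the way of ATF3 and STC2, at 21.5, 21.5 and 22.5 CPM in the Prol libraries, 70.6, 61.8 and 68.02 in those of Sen(IR), 31.6, 29.6 and 22.6 in those with UK5099 and 60.6, 58.1 and 53.9 in those with CTPI2. Sen(IR) lay above Prol and UK5099 without overlap, whereas the lowest UK5099 library (22.56 CPM) was barely above the highest Prol library (22.53 CPM). GDF15 changed by 1.61 (SE 0.0915, edgeR adjusted p 4.67e-13) in senescence and by -1.26 (SE 0.0892, edgeR adjusted p 9.92e-11) with UK5099. The translation inhibitor EIF4EBP1, at 26.6, 30.7 and 28.8 CPM in the Prol libraries, 8.41, 10.7 and 8.43 in those of Sen(IR), 5.22, 5.12 and 5.12 in those with UK5099 and 10.2, 8.01 and 9.09 in those with CTPI2, fell at both steps (-1.65 and -0.83). In senescence 5 of these 12 genes rose and 2 fell.

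The 20 cytosolic aminoacyl-tRNA synthetases, which charge tRNAs and include known ATF4 targets, all had negative log2 fold changes with UK5099, beside 49.0% of all genes tested. Of these 5 fell, beside 12.1%, and 0 rose, with a median of -0.31 against 0.01 over all genes, and the largest changes were WARS1 (-0.92, SE 0.0947, edgeR adjusted p 4.9e-08), YARS1 (-0.62) and GARS1 (-0.59). In senescence 6 of the 20 fell, beside 22.4% of all genes tested, led by FARSB (-0.85), TARS1 (-0.67) and YARS1 (-0.67). Of 19 other amino acid transporters tested, UK5099 raised 3, beside 8.76% of all genes, and lowered 3, beside 12.1% (median -0.16). These included SLC7A8 (1.71, SE 0.193, edgeR adjusted p 1.86e-07), a second LAT-type light chain, SLC38A5 (-1.76, SE 0.160, edgeR adjusted p 6.37e-09) and SLC6A15 (-1.49, SE 0.101, edgeR adjusted p 4.9e-11). In senescence 8 of the 19 rose, beside 24.8% of all genes, and 4 fell, beside 22.4%. SLC43A2, a further leucine carrier, was at 3.35, SLC6A15 at 2.79 and SLC38A5 at -2.49. SLC7A8 was low, at 2.28 ± 0.782 in Sen(IR) and 7.48 ± 0.285 CPM with UK5099.

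Of 18 other folate, glycine, proline and arginine enzymes tested, UK5099 lowered 5, beside 12.1% of all genes, and raised 3, beside 8.76% (median -0.13). Thymidylate synthase TYMS, which serves DNA synthesis, had the largest change with UK5099 (-1.74, SE 0.0853, edgeR adjusted p 1.71e-13) and had fallen in senescence too, with a log2 fold change of -2.498. Exons of ENOSF1 and TYMSOS cover 47.91% of the TYMS exon bases, and 2 pseudogenes carry its name. In senescence 7 of the 18 fell, beside 22.4% of all genes, and 2 rose, beside 24.8%. The highest was ASS1, argininosuccinate synthase, at 2.77 (SE 0.0906, edgeR adjusted p 2.74e-17), and 14 pseudogenes carry its name. In these 5 lists CTPI2 gave 0 calls, with 9 genes at an unadjusted p under 0.05 among the 76 tested, beside 7.27% of all genes. Of these, 1 amino acid transporter had an edgeR adjusted p under 0.05, beside 0.486% of all genes, and stayed under the fold limit.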

How the data were processed

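The 12 libraries were sequenced as paired ends by a service provider, and the reads went through Trimmomatic 0.36 for trimming, STAR 2.5.2b for alignment to GRCh38 and featureCounts of Subread 1.5.2 for counting by gene (versions from the submitters' processing notes). The deposited table holds raw counts per gene without normalization. Columns were mapped to samples by their labels, and 0 columns belonged to other samples. Strandedness is not given in the sources used here. The upstream steps could not be varied.

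The 35 genes and the further gene lists were chosen with earlier results of these data known. The test was edgeR 4.0.16 under R 4.3.3, with filterByExpr, TMM, glmQLFit and glmQLFTest, and group was the single term of 1 model for the 12 libraries. The filter left 16251 of 57500 genes, holding 99.9% of the counts, and the coefficient of variation between replicates was 6.12%. The SE is the absolute log2 fold change divided by the square root of F. Values were given per library for genes called with an absolute log2 fold change over 1 in Sen(IR) against Prol or Sen(IR)+UK5099 against Sen(IR), for genes called with CTPI2 (0), and for ATF4 and DDIT3. From each further list at most 3 called genes with the largest change were named per comparison, and some of these are not reported here. SLC3A2, the 4 genes at an unadjusted p under 0.05 with CTPI2 and the largest differences between the inhibitors were named after their values were seen. Gene positions, exon lengths and overlaps came from GENCODE v44 (GRCh38), and promoter sequences from RefSeq (GRCh38.p14). Between libraries of a group, the chi-square per gene was 2.28 to 13.6, so none was a copy of another. The scripts were tested on simulated data.

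Alternatives were the DESeq2 1.42.0 Wald test, upper-quartile and RLE scaling, the unfiltered table, a replicate block, the study's limit on the unadjusted p, fold limits of 1 and of none, and leaving out each library in turn.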

Additional observations from a re-analysis of the deposited data

How the results depend on the processing

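The DESeq2 test, RLE scaling, the unfiltered table and the limit on the unadjusted p kept every count of called genes within 1.5 times its value, as did upper-quartile scaling except for the genes raised by UK5099 (2 in place of 1). That scaling moved the median log2 fold change of all genes in Sen(IR) against Prol by 0.12. With the fold limit raised to 1 on the log2 scale, the counts became 2 higher and 10 lower in Sen(IR) against Prol, 0 higher and 7 lower with UK5099, and 0 higher and 6 lower with UK5099 against CTPI2. Shares of all genes at the fold limit of 1 are not given here. With no fold limit, 27 of the 35 passed the p limit with UK5099, beside 45.4% of all genes, and 4 of these were higher. With CTPI2 1 was lower, beside 0.486% of all genes past the p limit in either direction. Between UK5099 and CTPI2, 28 of the 35 passed the p limit, and 5 of these were higher with UK5099. No share of all genes is given for this comparison. Leaving out 1 library at a time gave 3 to 5 higher and 18 to 22 lower in Sen(IR) against Prol, 1 to 2 higher and 19 lower with UK5099 (2 higher without Sen(IR) replicate 2), 0 with CTPI2, and 2 higher and 15 to 19 lower with UK5099 against CTPI2. The cause of these moves was not tested. Among the per-gene results, DDIT3 in senescence passed the limits under upper-quartile scaling (0.58) and without Prol replicate 2 (0.50), DDIT4 lost its call without Prol replicate 1 (0.48) and SLC6A9 without Prol replicate 2 (-0.40), and no direction was reversed. Among genes not called in senescence, ALDH1L2 (0.03) and CTH (0.18) turned positive without Prol replicate 2, CTH (0.08) also without Sen(IR) replicate 2, and VLDLR turned negative (-0.06) without Prol replicate 1.

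Over all genes tested, same-numbered libraries did not deviate together (correlations of deviations from group means -0.0145 to 0.0423). A pairing that touches only some genes could be missed this way, and the labels do not state one. With a replicate block the counts stayed at 4 higher and 19 lower in Sen(IR) against Prol, 1 and 19 with UK5099, 0 and 0 with CTPI2, and 2 and 18 with UK5099 against CTPI2, and 52 of 52 per-gene results kept their side of the limits. CHAC1 with CTPI2 had an adjusted p of 0.0512 with the block. Low genes were measured with less precision, CBS with an SE of 0.362 with UK5099.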
